A study of Mus musculus with 28 samples.

Results

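The genes described here are 39 genes of DNA replication and S phase, named by symbol as known parts of the replication machinery. The rule uses no measured value, but the list was drawn up with earlier results of these data known. All 39 are among the 13846 genes listed for mouse embryonic cortex, and 38 of them, all but Pole2, are among the 14104 genes listed for adult prefrontal cortex (PFC). The 2 tables together list 14879 genes. The members fall into 9 roles, from the helicase core through polymerases, sliding clamp and nucleotide supply to the cyclins that open S phase.

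DNA is copied in S phase by the replisome. A helicase of MCM, CDC45 and GINS proteins opens the double helix, polymerase alpha-primase lays down primers, and polymerases delta and epsilon extend them on the PCNA clamp that replication factor C loads. In the developing cortex these genes mark the cycling progenitors of the ventricular and subventricular zones, and neurons no longer copy their genome.

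RNA sequencing was done on 28 libraries from a knockout mouse line for Myt1l, a zinc finger transcription factor of differentiating neurons. Embryonic cortex (E14.5) gave 6 wild-type (WT), 6 heterozygous (Het) and 4 homozygous knockout (Hom) libraries, and adult PFC gave 6 WT and 6 Het libraries. No treatment is labelled. Neither the adult age nor the design of the knockout allele is stated in the labels, and adult Hom animals are not among the groups. The labelled sex was 5 female and 1 male in embryonic WT, 3 and 3 in Het, 3 and 1 in Hom, and 3 and 3 in each adult group. Libraries are named by genotype, sex letter and animal number, as in WT F04. Nothing states how the animals were related, so the p-values measure the spread between these samples.

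Values are CPM, scaled counts recovered from the deposited log2 values, and a log2 change is a difference of log2(CPM + 0.5) fitted with limma. The libraries do not share a common total. In E14.5 cortex the CPM of a library summed to between 940451.9 (Hom F09) and 1053593.4 (WT F09). A gene was called when its Benjamini-Hochberg adjusted p over all genes tested was under 0.05. Myt1l itself lay between 45.9 and 66.6 CPM in WT embryos, 30.6 and 59.5 in Het and 18.1 and 23.3 in Hom, so every Hom library was below the other embryonic libraries while Het overlapped WT (limma adjusted p = 0.125). In adult PFC all Het libraries (105 to 121 CPM) were below all WT libraries (146 to 168 CPM). The Y-linked gene Ddx3y went against the labelled sex in 2 embryonic libraries, at 21.6 CPM in Het F10 and 0 in Het M11. WT F04 had the highest WT value for 20 of the 39 members. Counts of calls are given also without these 3 libraries. The depth of the libraries is unknown, because the deposited values had been scaled and adjusted. In bulk tissue, fewer cells of a type and less RNA per cell cannot be told apart.

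Promoter sequence was taken from RefSeq (build GRCm38.p6) for the 32 members that matched it by symbol. Prim2, Gins2, Pole, Ccne2, Gins4, Gins1 and Rfc2 had no entry. Each window ran from 250 bases before to 50 bases after a listed start, and both strands were searched for 3 kinds of motif that the literature ties to cell cycle genes. These were E2F octamers (TTTCCCGC, TTTGGCGC, TTTCGCGC or TTTGCCGC), the CCAAT box, and the cell cycle homology element TTTGAA. The octamers contain neither of the other motifs. The stretches below belong to members called in E14.5 cortex (Rrm1, Mcm10, Dnmt1, Rpa1 and Rpa3) and to Pola1 and Rfc3, which show what an E2F octamer match looks like. Motif letters on either strand are in capitals, each stretch is written 5′ to 3′ on the gene's strand, and all but the last are free of annotated exons.
Rrm1: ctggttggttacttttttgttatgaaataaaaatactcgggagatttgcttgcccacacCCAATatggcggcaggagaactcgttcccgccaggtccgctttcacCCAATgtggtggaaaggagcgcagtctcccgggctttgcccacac
Mcm10: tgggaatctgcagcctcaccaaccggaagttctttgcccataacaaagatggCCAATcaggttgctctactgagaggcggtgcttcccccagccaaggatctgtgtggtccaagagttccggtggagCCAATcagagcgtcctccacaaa
Dnmt1: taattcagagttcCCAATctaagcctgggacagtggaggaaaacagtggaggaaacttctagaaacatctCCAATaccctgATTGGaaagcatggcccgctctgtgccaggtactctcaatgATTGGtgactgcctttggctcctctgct
Rpa1: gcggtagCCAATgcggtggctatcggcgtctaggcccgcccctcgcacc
Rpa3: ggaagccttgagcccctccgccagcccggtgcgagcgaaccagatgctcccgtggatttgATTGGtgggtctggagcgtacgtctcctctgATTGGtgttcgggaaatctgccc
Pola1: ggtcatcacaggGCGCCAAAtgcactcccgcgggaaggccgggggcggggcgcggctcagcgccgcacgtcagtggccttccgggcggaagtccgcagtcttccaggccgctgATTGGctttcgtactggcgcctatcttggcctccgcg
Rfc3: gcTTTCGCGCtcGCGGGAAAac

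The stretches lie at chr7:102441545-102441694 (plus strand) for Rrm1, chr2:5012792-5012941 (minus) for Mcm10, chr9:20959889-20960038 (minus) for the most upstream of the Dnmt1 starts, chr11:75348384-75348432 (minus) for Rpa1, chr6:8259174-8259287 (minus) for Rpa3 and chrX:93632156-93632305 (minus) for Pola1. The Rfc3 site of 22 bases at chr5:151651199-151651220 (minus) spans the start and holds 2 octamers, one on each strand. Rrm1, Mcm10 and Rpa3 each carried 2 CCAAT boxes in the stretch shown, Dnmt1 carried 4 and Rpa1 carried 1. Of the called members not shown, Cdc45 had the CCAAT box and TTTGAA in its window, and Tk1 had none of the motifs. Prim2 and Rfc2 had no entry. The E2F octamers of Dnmt1 lie at its other start and are not in the stretch shown. An E2F octamer was present for 9 of the 32 members (28.1%; Dnmt1, Gins3, Lig1, Pola1, Pold1, Pold3, Pole2, Rfc3 and Uhrf1), against 2.6% of the 27025 genes with a promoter. The CCAAT box was present for 18 members (56.2%) against 41.1% of genes, and TTTGAA for 5 members (15.6%) against 20.2%. With the first letter of the octamers left out, 19 members (59.4%) and 10.9% of genes had a match, among them Rrm1 and Rpa3. A match describes letters in a window and was not tested against binding.

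In E14.5 cortex a minority of the replication genes differed from WT in either mutant genotype. Those that did were mostly lower, with log2 changes from -0.22 to -0.51 in Hom and -0.26 to -0.48 in Het, and they were spread over 4 of the 9 roles in Hom and 5 in Het. In Hom embryos 6 members were lower (Cdc45, Mcm10, Rfc2, Rrm1, Tk1 and Dnmt1), which is 15.4% of the members against 4.37% of the 12429 genes tested. One member, Rpa3, was higher, which is 2.56% against 3.23% of genes. In Het embryos 7 members were lower (Cdc45, Mcm10, Prim2, Rpa1, Rrm1, Tk1 and Dnmt1), 17.9% against 2.98% of genes, and Rpa3 was higher, 2.56% against 2.84%. All 39 members passed the filter on low values in the embryo. Their median log2 change was -0.13 in Hom and -0.13 in Het, beside 0.02 and 0.03 for all genes tested. Both comparisons use the same 6 WT libraries, so they are not independent of each other. Without WT F04, Het F10 and Het M11 the counts of lower members were 4 in Hom and 4 in Het, and with empirical Bayes in its plain form they were 0 and 1 (Rrm1). The count in Hom was 2 without WT F04 or Hom F04 and 3 without Hom F09 or Hom M02, and that in Het was 1 without Het F07, 2 without WT F04, 3 without WT F06 or Het F02 and 4 without Het M01. Of all genes called in Hom 57.5% were lower, against 71.7% with each library centred on its median, 35.7% with each scaled to its total and 34.1% with voom weights. In Het the share was 51.2%, and 70.5% with median centring. Under these 3 scalings the lower members numbered 7, 4 and 2 in Hom and 9, 7 and 7 in Het.

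**Figure D1:**
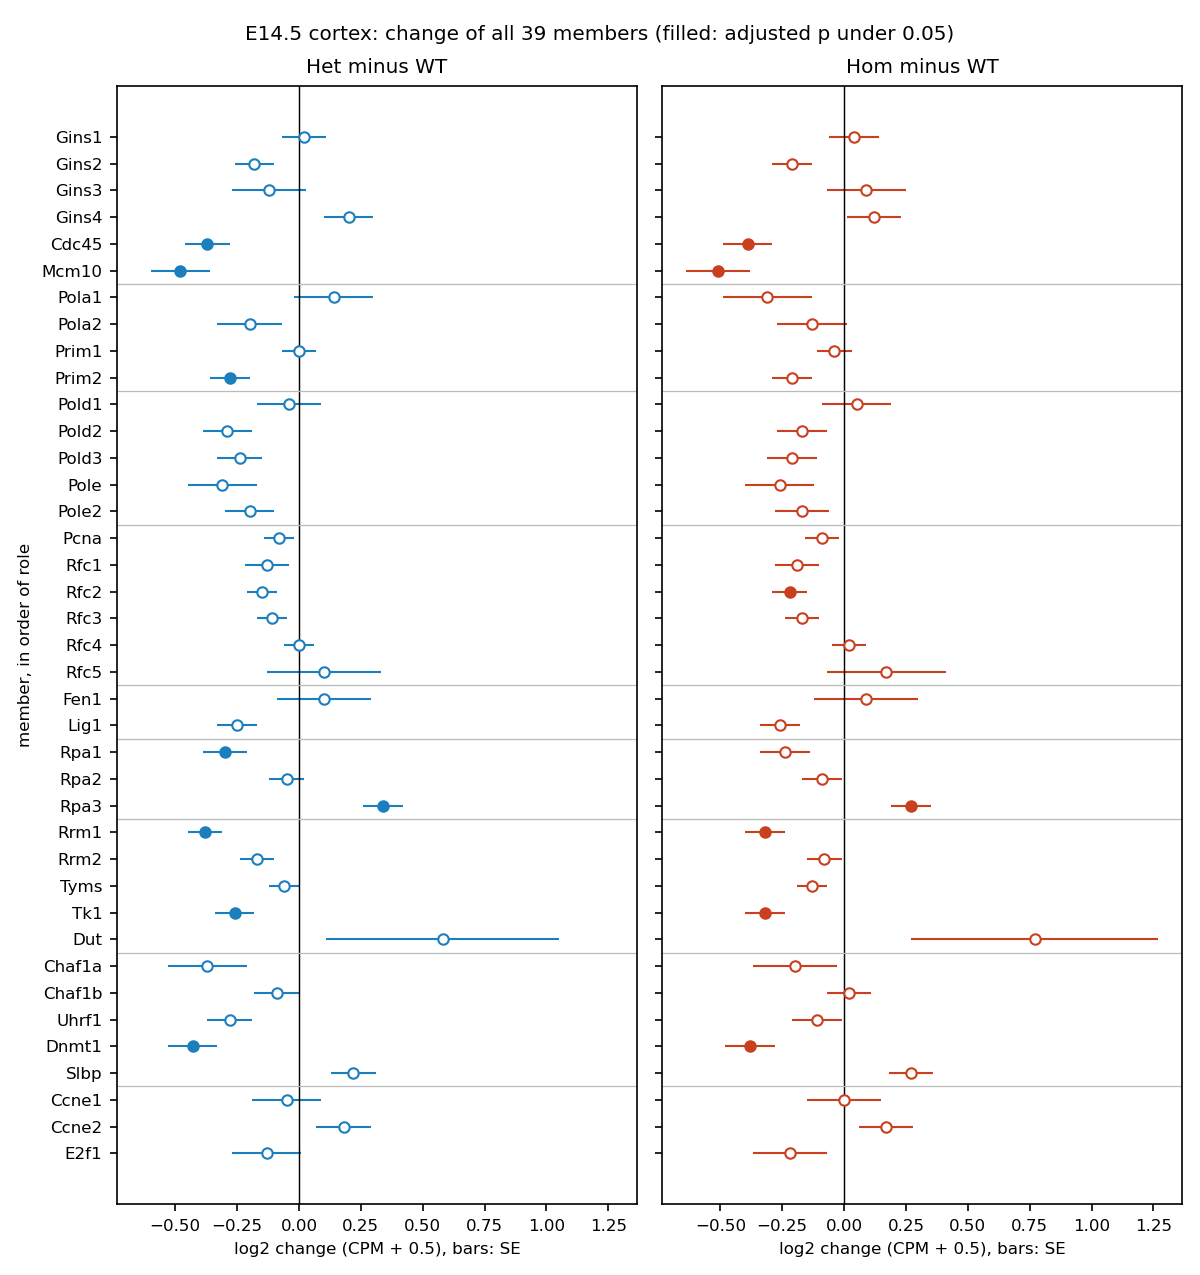
Log2 change from WT (x axis, difference of log2(CPM + 0.5)) of the 39 members in E14.5 cortex of Het (left) and Hom (right) embryos, grouped by role from the helicase core at the top to the G1/S regulators at the bottom. Points are fitted changes, bars their standard errors and filled points have an adjusted p under 0.05; most points lie left of 0, Rpa3 lies right of it in both panels, and Dut has the widest bars.

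The role described first is that of the helicase core and its activation. CDC45 is the subunit that joins MCM and GINS into the active helicase. Cdc45 (chromosome 16, 18780447 to 18811987, minus strand, mm10) was between 71.3 and 100.3 CPM in WT with a median of 82.5, and between 54.5 and 72 in Het with a median of 63.3. The Hom libraries had 68.6, 68.8, 60.6 and 56.7 CPM. Every Hom library was below every WT library, and of the Het libraries Het M11 alone reached into the WT range. Cdc45 fell by 0.39 in Hom (SE 0.10, limma adjusted p = 0.0136) and by 0.37 in Het (SE 0.09, adjusted p = 0.0179) on the log2 scale. The Hom call was lost in 3 of 31 alternative analyses and the Het call in 4.

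Mcm10, a factor that activates the loaded helicase and stays with the fork (chromosome 2, 4989714 to 5012791, minus strand), had a WT range of 29.3 to 40.4 CPM with a median of 37.6. Het libraries ran from 23.5 to 37.8 with a median of 25.5, and the Hom libraries had 25.7, 18.2, 27.5 and 32.4 CPM. One Hom library (M02) and 1 Het library (M07) lay inside the WT range, and the others were below it. Its log2 difference from WT was -0.51 in Hom (SE 0.13, limma adjusted p = 0.0192) and -0.48 in Het (SE 0.12, adjusted p = 0.0243), the largest falls among the called members. Of 31 alternative analyses, 5 lost the Hom call and 8 the Het call. The 4 GINS genes, whose products form the ring-shaped partner of CDC45, were not called. Gins2 had 102 ± 6.28 CPM in WT, 89.4 ± 6.04 in Het and 88.1 ± 11 in Hom (SD, n = 6, 6 and 4; limma adjusted p = 0.158 in Het and 0.116 in Hom). Its libraries ran from 92.5 to 109 CPM in WT, 82.2 to 96.5 in Het and 78.5 to 104 in Hom, so the groups overlapped. Gins4 had 30.7 ± 1.59, 35.1 ± 4.19 and 33.7 ± 6.87 CPM in the same order, above the WT mean in all 6 Het libraries. The Gins2 value is less certain, because 67.3% of its exon bases also belong to Gse1 on the opposite strand and the use of strand in counting is not given in the sources used here.

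Of the polymerase alpha-primase genes, which prime each new strand, 1 of 4 was called. Prim2, the large primase subunit (chromosome 1, 33453810 to 33669795, minus strand), ranged from 94.5 to 112 CPM in WT with a median of 101 and from 74.2 to 95.9 in Het with a median of 86. Hom libraries had 90.9, 88.5, 84.4 and 89.4 CPM, all below the lowest WT library. It fell by 0.28 in Het (SE 0.08, limma adjusted p = 0.0289), and the Hom change of -0.21 (SE 0.08, adjusted p = 0.101) did not pass. The Het call of Prim2 was lost in 9 of 31 alternative analyses. Its partner Prim1, the catalytic primase subunit, had 113 ± 9.4, 111 ± 5.1 and 109.8 ± 7.67 CPM in WT, Het and Hom. Pola1, the catalytic subunit of polymerase alpha, ranged from 7.8 to 12.4 CPM in WT, 8.23 to 11.5 in Het and 4.95 to 10.1 in Hom. Its log2 changes of -0.31 in Hom and 0.14 in Het did not pass (adjusted p = 0.294 and 0.676). Pola2, the accessory subunit, ranged from 8.48 to 12.8, 8.31 to 10.5 and 9.05 to 12.3 CPM and was not called.

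No gene of polymerases delta and epsilon was called. A change below 0 was found for 4 of 5 in Hom and 5 of 5 in Het, beside 47.3% and 45.2% of all genes tested. The lowest p in Het was that of Pold2, a regulatory subunit of polymerase delta, at 46.4 ± 3.96 CPM in WT, 39.1 ± 4.45 in Het and 41.7 ± 6.31 in Hom. Its Het libraries ran from 31.7 to 44.8 CPM and the WT libraries from 43.3 to 53.5. All 6 Het libraries were below the WT mean, and the log2 change of -0.29 (SE 0.10) had a limma adjusted p of 0.0676. Pold3, another accessory subunit (62.6 to 87.8 CPM in WT, 59.5 to 73.9 in Hom), and Pole, the catalytic subunit of polymerase epsilon, had Het changes of -0.24 and -0.31 (adjusted p = 0.126 and 0.165). Pold1, the catalytic subunit of polymerase delta, had -0.04 in Het and 0.05 in Hom.

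Among the clamp and its loader, Rfc2 alone was called, and in Hom alone. Rfc2, a small subunit of replication factor C (chromosome 5, 134581366 to 134601805, plus strand), ranged from 203 to 242 CPM in WT (median 217) and from 189 to 204 in Het (median 196). Hom libraries had 209.7, 183, 177 and 186 CPM, so Hom F01 lay in the WT range and the other Hom libraries below every WT and Het library. Its log2 difference from WT was -0.22 in Hom (SE 0.07, limma adjusted p = 0.0481), a call lost in 20 of 31 alternative analyses, and -0.15 in Het (SE 0.06, adjusted p = 0.153). Lat2 shares 15.1% of the Rfc2 exon bases from the opposite strand. Pcna, the clamp itself, had 381 ± 21 CPM in WT, 356 ± 15.2 in Het and 357 ± 31.6 in Hom and was not called (adjusted p = 0.482 and 0.428). Rfc3, another loader subunit, ranged from 149 to 170.1 CPM in WT, 136 to 159.7 in Het and 135 to 149 in Hom, and its Hom change of -0.17 did not pass (adjusted p = 0.108). Rfc4 had 200.4 ± 7.35, 201 ± 8.05 and 204 ± 16.1 CPM in WT, Het and Hom.

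Lig1, the ligase that seals Okazaki fragments, lay just outside the threshold in both genotypes. Its WT libraries ran from 102 to 125 CPM, Het from 90.9 to 113 and Hom from 87.7 to 106. The means were 116 ± 8.87 CPM in WT, 98.5 ± 7.75 in Het and 96.9 ± 9.73 in Hom, and the groups overlapped, with all Het and all Hom libraries below the WT mean. The log2 changes of -0.26 in Hom and -0.25 in Het had limma adjusted p-values of 0.0503 and 0.0534. Fen1, the flap nuclease that trims the fragments, was listed at 3.49 ± 0.323 CPM in WT. That level is hard to read, because 84.2% of the Fen1 exon bases are shared with Tmem258 and Gm10143 on the opposite strand.

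RPA, the trimer that coats single-stranded DNA, had members called in both directions. Rpa1, the large subunit (chromosome 11, 75298166 to 75348324, minus strand), ranged from 204 to 253 CPM in WT (median 225) and from 141 to 225 in Het (median 190.2), and the Hom libraries had 184, 188, 209 and 198 CPM. Het M07 and Het M11 lay inside the WT range. It fell by 0.30 in Het (SE 0.09, limma adjusted p = 0.0499), which is at the threshold and was lost in 22 of 31 alternative analyses. Its change in Hom was -0.24 (SE 0.10, adjusted p = 0.129).

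Rpa3, the small subunit (chromosome 6, 8255936 to 8259173, minus strand), ranged from 110.2 to 131 CPM in WT with a median of 119 and from 129.8 to 168 in Het with a median of 161. The Hom libraries had 149.6, 149, 139.8 and 142 CPM. All Hom libraries were above all WT libraries, and Het F10 alone among Het reached into the WT range. Rpa3 rose by 0.27 in Hom (SE 0.08, limma adjusted p = 0.0373) and by 0.34 in Het (SE 0.08, adjusted p = 0.0102) on the log2 scale. The Hom call was lost in 12 of 31 alternative analyses and the Het call in 3. The Rpa3 transcript has a GC content of 34.2%, against a median of 49.6% for the genes tested. With each library corrected for GC content and length, the change was 0.03 in Hom (adjusted p = 0.872) and -0.02 in Het (adjusted p = 0.942). Rpa2, the middle subunit, had 166 ± 13.7, 158 ± 10.0 and 155 ± 14.7 CPM in WT, Het and Hom.

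Deoxynucleotide supply held Rrm1, the one member whose call in Het passed in every alternative analysis run. RRM1 is the large subunit of ribonucleotide reductase, the enzyme that makes deoxynucleotides from ribonucleotides. Rrm1 (chromosome 7, 102441695 to 102469771, plus strand) ranged from 311 to 382 CPM in WT (median 341) and from 231 to 319 in Het (median 268). The Hom libraries had 269, 259, 284 and 291 CPM. Every Hom library lay below every WT library, and only Het M11, at 319 CPM, reached the WT range. Rrm1 fell by 0.38 in Het (SE 0.07, limma adjusted p = 0.00611) and by 0.32 in Hom (SE 0.08, adjusted p = 0.0147). The Het call held in all 31 alternative analyses, and the Hom call in 28 of them (lost with plain empirical Bayes, voom weights or without Hom F04). Its partner Rrm2, the small reductase subunit whose supply is tied to S phase, had 583 ± 28.5 CPM in WT, 537 ± 70.4 in Het and 555 ± 28.3 in Hom and was not called (adjusted p = 0.118 and 0.512). Its range was 539.9 to 624 CPM in WT and 475 to 667 in Het.

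Tk1, the S phase thymidine kinase (chromosome 11, 117815526 to 117826092, minus strand), ranged from 160.0 to 207 CPM in WT (median 185) and from 139.7 to 171 in Het (median 152), and the Hom libraries had 158, 147, 137 and 143 CPM. All Hom libraries were below WT, and 3 Het libraries lay in the WT range. It fell by 0.32 in Hom (SE 0.08, limma adjusted p = 0.0186) and by 0.26 in Het (SE 0.08, adjusted p = 0.0483). The Het call was lost in 19 of 31 alternative analyses and the Hom call in 5. Tyms, which makes thymidylate, had 289.7 ± 16.4, 271 ± 10.3 and 263 ± 18 CPM in WT, Het and Hom and was not called (adjusted p = 0.608 in Het and 0.195 in Hom).

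Dut, the dUTPase that keeps uracil out of DNA, had the widest standard errors of all members. In WT it ranged from 19.3 to 68.8 CPM with a median of 31.7, in Het from 22.1 to 117 with a median of 55.6, and the Hom libraries had 42.1, 42.4, 93.1 and 58.3 CPM. The spread within genotypes was wide and the groups overlapped. The log2 changes, 0.77 in Hom (SE 0.50) and 0.58 in Het (SE 0.47), were not called (limma adjusted p = 0.391 and 0.513). Rfc5, a clamp loader subunit, was also uneven, from 16.3 CPM in Het F02 to 41.4 in Het F10. Het F10, Het M01, Het M11, Hom F09, Hom M02 and WT F12 held the 6 highest values of both genes, a coincidence singled out after the values were seen. In adult PFC, Dut stayed within 43.1 and 59.9 CPM over all 12 libraries.

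**Figure D2:**
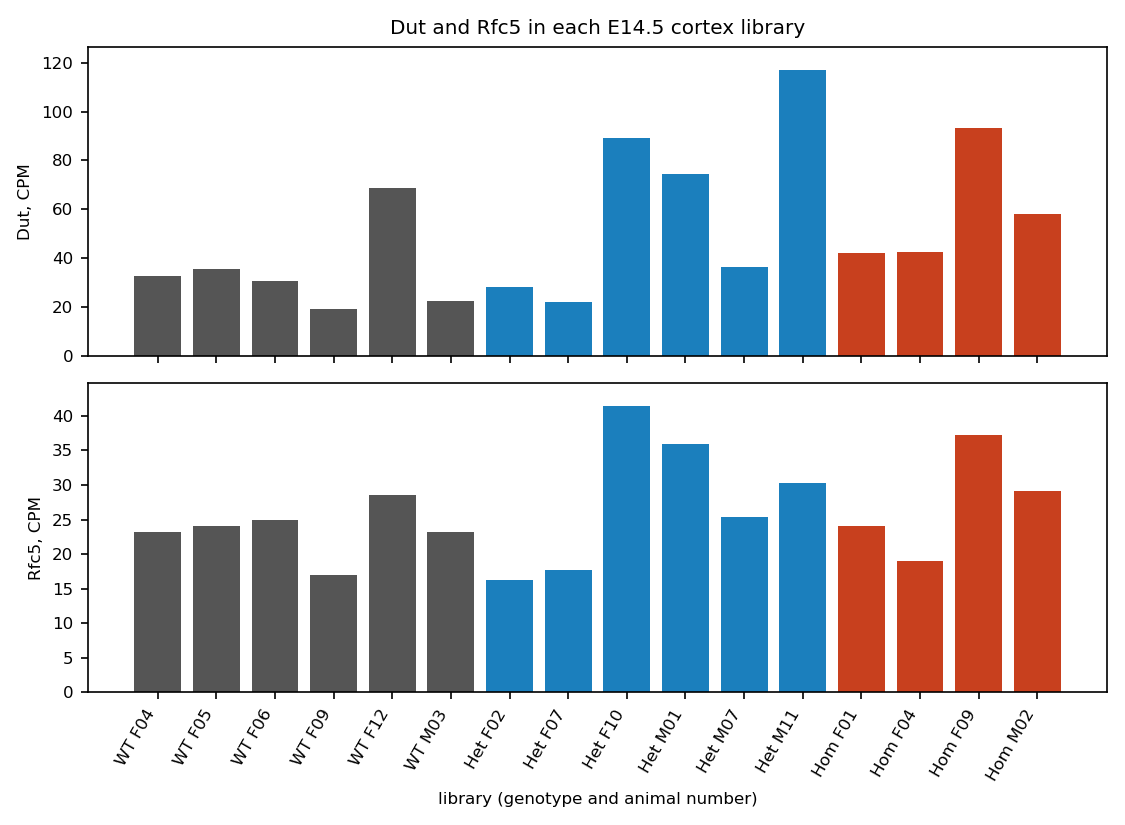
CPM (y axis, from 0) of Dut (top) and Rfc5 (bottom) in each of the 16 E14.5 cortex libraries (x axis; grey WT, blue Het, red Hom). Dut runs from 19.3 CPM in WT F09 to 117 in Het M11, and the libraries high in Dut are also high in Rfc5.

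Of the genes that copy chromatin and DNA methylation, Dnmt1 was called in both genotypes. DNMT1 restores methylation on the new strand. Dnmt1 (chromosome 9, 20907209 to 20959888, minus strand) ranged from 109.9 to 145 CPM in WT with a median of 125 and from 82.7 to 121 in Het with a median of 89.8. The Hom libraries had 88, 85.3, 107 and 109 CPM, all below WT, while Het F10 and Het M11 overlapped WT. It fell by 0.43 in Het (SE 0.10, limma adjusted p = 0.0127) and by 0.38 in Hom (SE 0.10, adjusted p = 0.0264). The Hom call was lost in 8 of 31 alternative analyses, among them total scaling, voom weights and the GC content and length correction. The Het call was lost in 2.

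Uhrf1, which brings DNMT1 to hemimethylated DNA, had 139 ± 9.95 CPM in WT, 119 ± 21.6 in Het and 129.8 ± 11.6 in Hom. Its changes of -0.28 and -0.11 did not pass (limma adjusted p = 0.0776 in Het and 0.562 in Hom). Slbp, the binding protein of histone mRNA stem loops, ranged from 53.3 to 66.1 CPM in WT and from 65 to 77.1 in Hom, with means of 59 ± 4.34, 68.1 ± 8 and 71.1 ± 6.5 CPM in WT, Het and Hom. All 4 Hom libraries were above the WT mean, but the change of 0.27 in Hom had an adjusted p of 0.0748. The chromatin assembly factor genes Chaf1a and Chaf1b were not called. Chaf1a shares 52.5% of its exon bases with Ubxn6 on the opposite strand.

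The G1/S regulators were low in level and none was called. E2f1, the transcription factor that drives S phase genes, had 14.3 ± 2.03 CPM in WT, 13.1 ± 1.87 in Het and 12.4 ± 2.84 in Hom (limma adjusted p = 0.62 and 0.398). Ccne2, an E-type cyclin, ranged from 13.8 to 17.7 CPM in WT, 16.3 to 21.3 in Het and 15.6 to 19.4 in Hom. Its means were 15.6 ± 1.6, 18.4 ± 2.1 and 17.7 ± 1.64 CPM, and all Het and all Hom libraries were above the WT mean (adjusted p = 0.335 and 0.397). Ints8 shares 17.4% of the Ccne2 exon bases from the opposite strand. Ccne1 had 10.2 ± 1.99, 9.2 ± 2.01 and 9.94 ± 1.22 CPM.

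**Figure D3:**
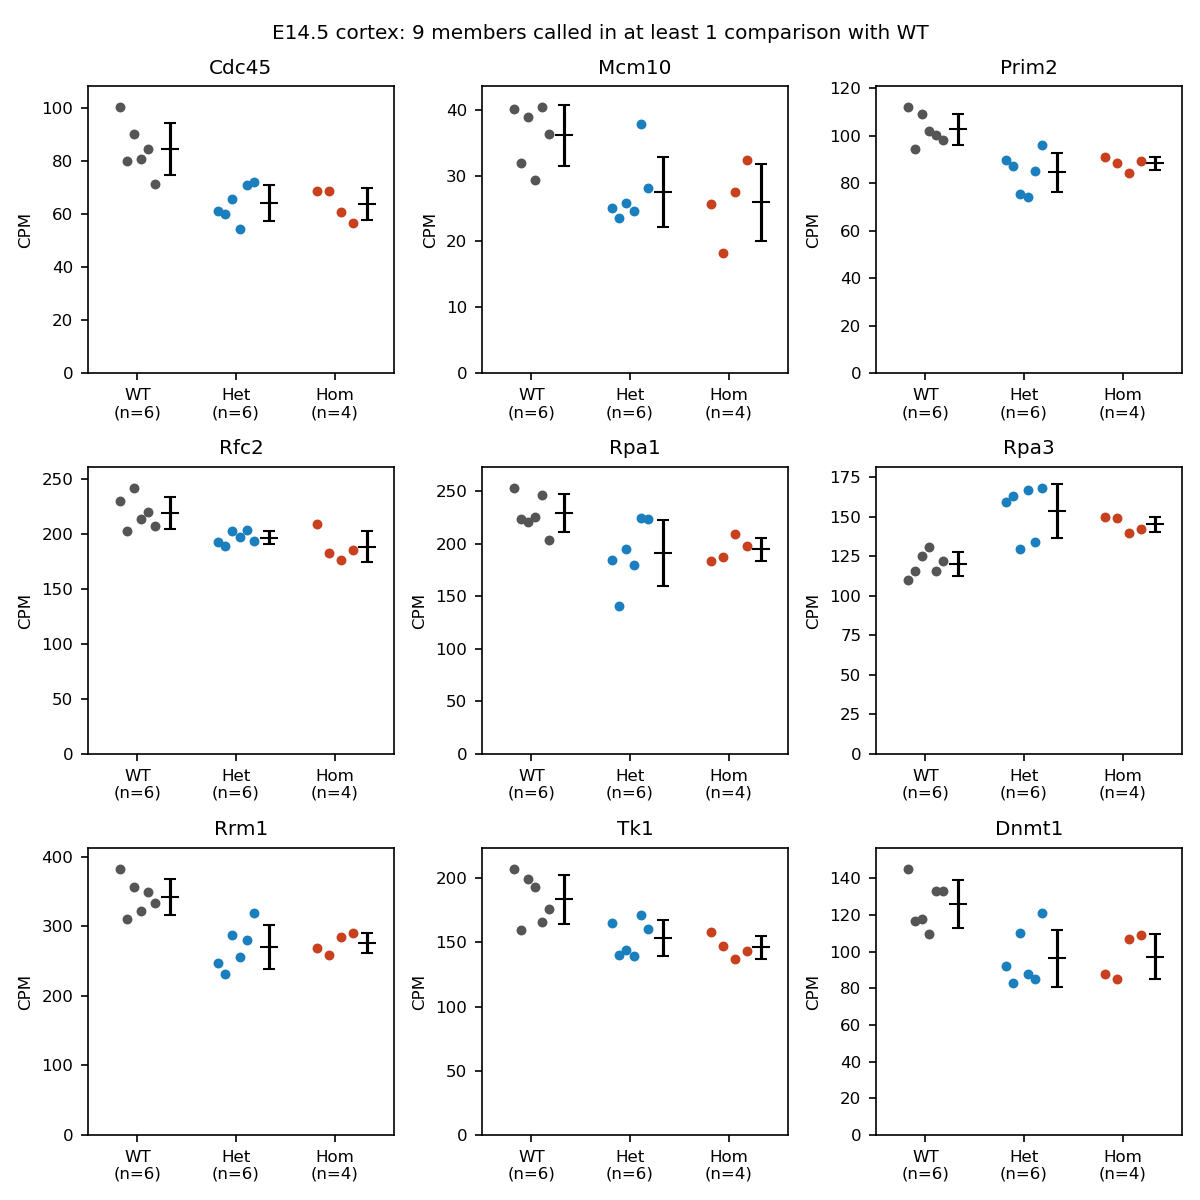
CPM (y axis, from 0) of the 9 members called in at least 1 comparison with WT, in E14.5 cortex. Each point is a library (6 WT, 6 Het, 4 Hom), with the mean and SD beside it; Cdc45, Rrm1, Tk1, Dnmt1 and Prim2 have all Hom points below all WT points, and Rpa3 has all Hom points above.

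Over the 39 members, all Hom libraries lay below all WT libraries for 6 (Cdc45, Prim2, Rfc3, Rrm1, Tk1 and Dnmt1), which is 15.4% against 5.11% of genes tested. For Het against WT this held for 0 members, against 1.33% of genes. By library, the median deviation of the members from their WT means was between -0.05 and -0.22 (log2) in the 6 Het libraries. In Hom it was 0.02 in F01 and -0.21, -0.13 and -0.20 in F04, F09 and M02, and WT libraries ran from -0.07 in F05 to 0.12 in F04. Hom F01 and Het M11 (-0.05) were inside the range of the WT libraries.

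No difference between Hom and Het embryos passed the test. None of the 39 members was called between them, against 0.00805% of genes (1 of 12429), also with voom weights. Pola1 alone had an unadjusted limma p under 0.05 (log2 change -0.45, adjusted p = 0.957). That is 2.56% of the members, against 5.12% of all genes tested. For Cdc45 the Hom minus Het difference was -0.03 with a 95% interval from -0.23 to 0.17. The interval ran from -0.10 to 0.23 for Rrm1, from -0.17 to 0.26 for Dnmt1, from -0.31 to 0.25 for Mcm10 and from -0.24 to 0.10 for Rpa3. Differences of the size seen against WT were outside these intervals for Cdc45, Rrm1, Dnmt1, Mcm10 and Rpa3. They were also outside the interval of Tk1 (-0.24 to 0.11). For the other called members, Prim2 (-0.10 to 0.23), Rpa1 (-0.14 to 0.27) and Rfc2 (-0.21 to 0.08), the interval included such a size, sign aside. Their changes against WT included -0.21 in Hom for Prim2, -0.24 in Hom for Rpa1 and -0.15 in Het for Rfc2.

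Partner genes of the same pathways were called in both directions at E14.5. Of 76 further replication genes in 5 lists, 75 were tested, 6 were lower and 3 higher in Hom, and 4 were lower and 1 higher in Het, with medians of 0.01 and -0.02. The lower calls were 8% of those tested in Hom and 5.33% in Het, against 4.37% and 2.98% of all genes, and the higher calls were 4% and 1.33%, against 3.23% and 2.84%. Of the 15 genes of the MCM helicase and licensing list, 4 were lower in Hom (Mcm7, Mcm5, Mcm3 and Cdc6) and 3 in Het (Mcm7, Mcm3 and Mcm5), with log2 changes from -0.41 to -0.59. Among the 22 tested replisome and origin firing partners, Timeless, a fork protection factor, fell by 0.43 in Het. It was not called in Hom, whose libraries had 26.1, 20.9, 26.9 and 28.5 CPM beside 24.2 to 29.2 in WT. Pole4, a small histone-fold subunit of polymerase epsilon, rose by 0.42 in Hom (SE 0.11, limma adjusted p = 0.0255) and 0.49 in Het (SE 0.11, adjusted p = 0.00947). In the list of 11 deoxynucleotide genes, Shmt1, which supplies folate-bound carbon for thymidylate, was lower in Hom (-0.43), and Rrm2b, the reductase subunit of resting cells, was higher (0.71). Rb1, the pocket protein that restrains E2F, was higher in Hom (0.57), and Asf1b, a histone chaperone of S phase, was lower (-0.30).

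Markers of other cell types and states were measured in the same libraries, and no list was tested as a whole. The summed level of 10 genes of G2 and mitosis was 1496 to 1734 CPM in WT (median 1573), 1305 to 1519 in Het (median 1429) and 1342 to 1557 in Hom (median 1383). All 10 had a change below 0 in both mutants (median -0.14 in Hom and -0.20 in Het), beside 47.3% and 45.2% of all genes tested. Of these genes Ccnb1 and Aurka were called lower in both mutants, and Mki67 was not called (limma adjusted p = 0.556 in Hom and 0.324 in Het). The radial glia sum had medians of 1749, 2092 and 1999 CPM in WT, Het and Hom, and that of intermediate progenitors 789, 715 and 718 CPM. Genes within both lists went both ways. Among the 9 radial glia genes, Sox2 was called higher and Prom1 lower in Hom, and none was called in Het. Of the 5 intermediate progenitor genes, 3 had a change above 0 in each mutant. Mfap4 was called lower in Hom and Neurog2 higher in Het. The cortical neuron sum had medians of 7631, 7498 and 7393 CPM. Yet 7 of its 8 genes had a change above 0 in each mutant, with medians of 0.19 in Hom and 0.24 in Het. Of the 12429 genes tested, 6553 in Hom and 6813 in Het had a change above 0. In Hom, Tbr1 was called higher and Tubb3 lower. In Het, Tbr1, Tubb3 and Neurod6 were called, 2 higher and 1 lower. Interneuron markers, from cells born outside the cortex, had medians of 40.8, 56.9 and 66.1 CPM, and Sp9 and Dlx1 were called higher in Hom. Choroid plexus genes ran from 1387 to 3968 CPM in WT, 2987 to 5175 in Het and 1580 to 2868 in Hom. Erythroid genes, from blood cells that also cycle in the embryo, ran from 8073 to 15673, 10058 to 18065 and 7183 to 12031 CPM. Of the 3 tested astrocyte markers Aldoc was lower in both mutants, and the sum of the list of 5 was 1059 to 1152 CPM in WT, 838 to 1083 in Het and 871 to 893 in Hom. All 8 mitochondrially encoded genes had a change above 0 in both mutants (median 0.23 in Hom and 0.40 in Het), of which mt-Co3 in Hom and mt-Co3 and mt-Co2 in Het were called. None of the listed markers of these types was at 0 throughout a group. The part of these cell types and of mitochondrial RNA in the changes of the members was not tested.

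In adult PFC most of the replication machinery was at a small share of its embryonic level. The tables were normalized separately, so levels are set side by side as a description with no test. Of the 38 members listed in both, 17 (44.7%) had a WT mean in PFC under 10% of the E14.5 mean, against 3.06% of the 11650 genes with at least 1 CPM in embryonic WT. The median share was 16% for the members and 109% for those genes. The lowest shares were those of Tk1 (0.266%), Uhrf1 (0.436%), Rrm2 (0.75%) and Tyms (1.03%). Rrm2 had 583 CPM in the embryo and 4.37 in PFC, Tyms 289.7 and 2.99, and Tk1 184 and 0.489. Uhrf1 went from 139 to 0.604 CPM and Chaf1b from 57.7 to 0.694. Of the 10 genes of G2 and mitosis, 7 were listed in PFC (all but Mki67, Aurkb and Bub1). Those 7 summed to between 8.52 and 13.7 CPM over the PFC libraries.

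Some members kept their level in adult PFC. Ccne1 had 26.1 CPM in PFC against 10.2 in the embryo, Dut 50.8 against 34.9, E2f1 16.8 against 14.3, and Gins4 30.8 against 30.7. Slbp, Rfc5, Pold2 and Rfc1 were between 62.6% and 97.3% of their embryonic means. Subunits of the same complex had unlike shares. Within GINS, Gins1 and Gins2 stood at 2.91% and 1.65% while Gins3 stood at 43.6% and Gins4 at 100.2%. Within replication factor C, Rfc3 and Rfc4 stood at 5.29% and 6.16%, Rfc2 at 27.7%, Rfc1 at 62.6% and Rfc5 at 97.3%. Eif4a2 shares 12.7% of the Rfc4 exon bases, and Wsb2 10.7% of those of Rfc5, from the opposite strand. Dnmt1, which neurons are also known to express, kept 16.6% while its partner Uhrf1 kept 0.436%. On a scale per length, the highest WT levels were 266 CPM per kb for Rrm2, 251 for Pcna and 176 for Rpa3 in the embryo. In PFC they were 47 for Pcna, 27.3 for Rpa3 and 26 for Dut.

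**Figure D4:**
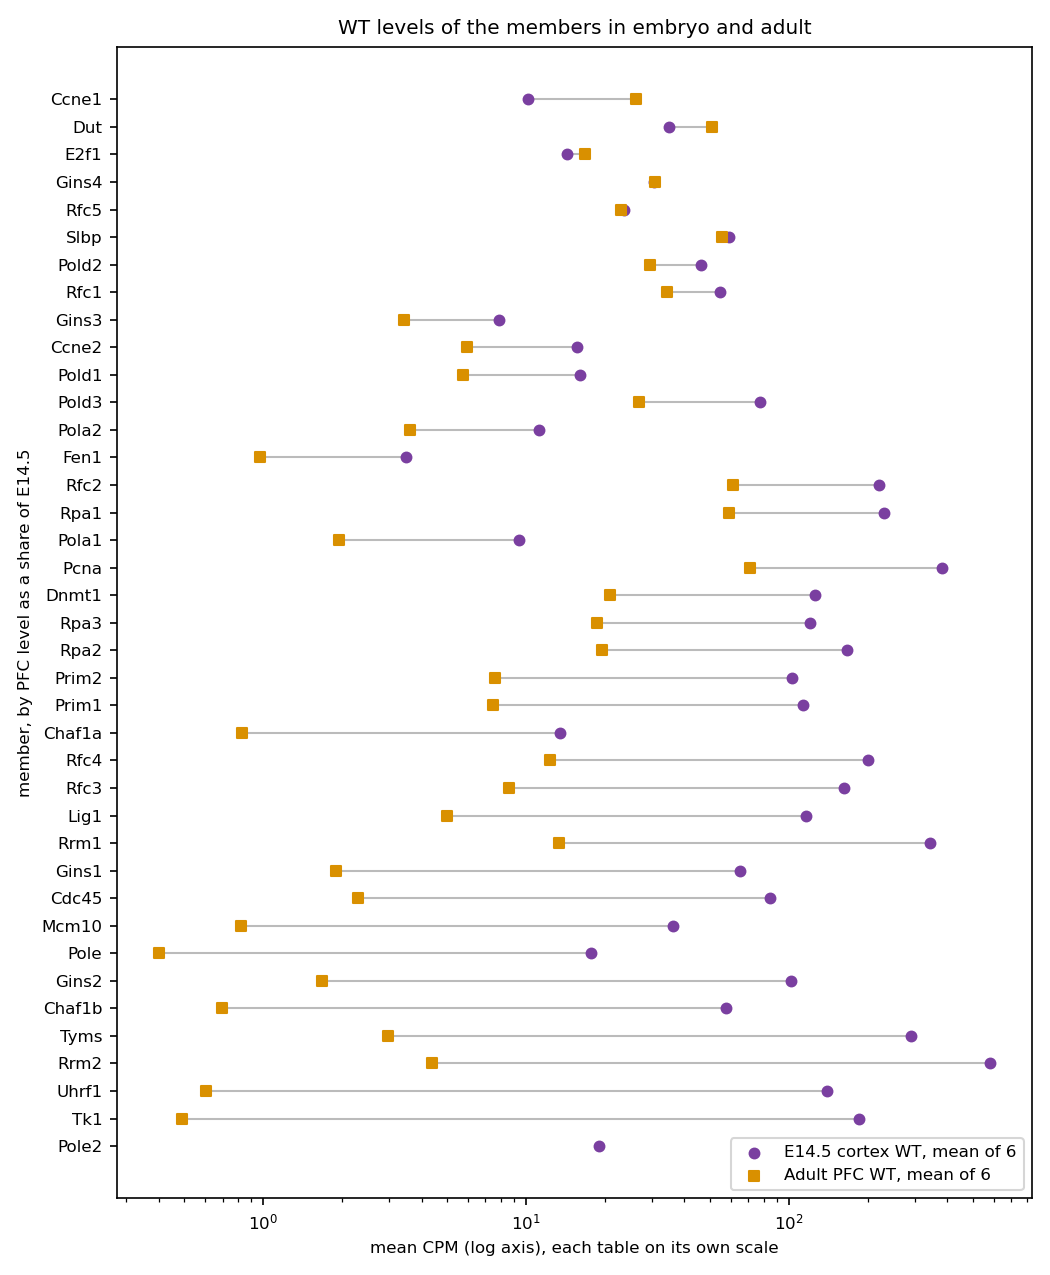
Mean WT level (x axis, CPM on a log scale; 6 libraries each) of the members in E14.5 cortex (circles) and adult PFC (squares), ordered by the PFC level as a share of the embryonic one. Ccne1, Dut, E2f1 and Gins4 are at the top with PFC means at or above the embryonic ones, Tk1 and Uhrf1 have the widest gaps, and Pole2 is listed for the embryo only.

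No replication gene was called between Het and WT in adult PFC. Of the 39 members, 32 passed the filter on low values. Mcm10, Pole, Fen1, Tk1, Chaf1b and Uhrf1 were listed but did not pass it, and Pole2 was not listed. None of the 32 was called, against 0.404% of the 12870 genes tested. An unadjusted limma p under 0.05 was found for 5 (15.6%), beside 13.6% of all genes tested. With voom weights 0 were called as well. The median log2 change of the 32 was -0.03, beside 0.01 for all genes.

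Gins4, the GINS subunit that kept its level, had the lowest p. It ranged from 28 to 34.5 CPM in WT (median 30.2) and from 21.4 to 29.4 in Het (median 27.5), and all 6 Het libraries were below the WT mean. Its log2 difference from WT was -0.23 (SE 0.09, limma adjusted p = 0.239). Rpa3 ranged from 15.9 to 21.7 CPM in WT and from 18.4 to 24.7 in Het, with a change of 0.25 (SE 0.10, adjusted p = 0.247), and the groups overlapped. E2f1 had 16.8 ± 2.21 and 13.7 ± 2.48 CPM in WT and Het (SD, n = 6 each; adjusted p = 0.248), and Rfc1 had 34.2 ± 4.29 and 39.2 ± 4.41 (adjusted p = 0.256). Ccne1 and Slbp had changes of -0.29 and -0.16 (adjusted p = 0.351 and 0.392). The members that fell in the embryo and could be tested here, Cdc45, Prim2, Rfc2, Rpa1, Rrm1 and Dnmt1, had adjusted p-values between 0.488 and 0.988. At 2.29 CPM in WT, Cdc45 had a 95% interval for its log2 change from -0.75 to 0.27, so a change of the embryonic size was not detectable at this level. The intervals of the others were narrower, with lower bounds of -0.29 for Rrm1, -0.25 for Dnmt1, -0.22 for Rpa1 and -0.06 for Prim2, beside embryonic Het changes of -0.38, -0.43, -0.30 and -0.28. For Rfc2 the interval ran from -0.13 to 0.13, beside embryonic changes of -0.15 in Het and -0.22 in Hom. The difference between the tissues was not tested. No member had a different Het effect in labelled males and females (32 tested, lowest adjusted p = 0.536), and 2 had an unadjusted p under 0.05.

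**Figure D5:**
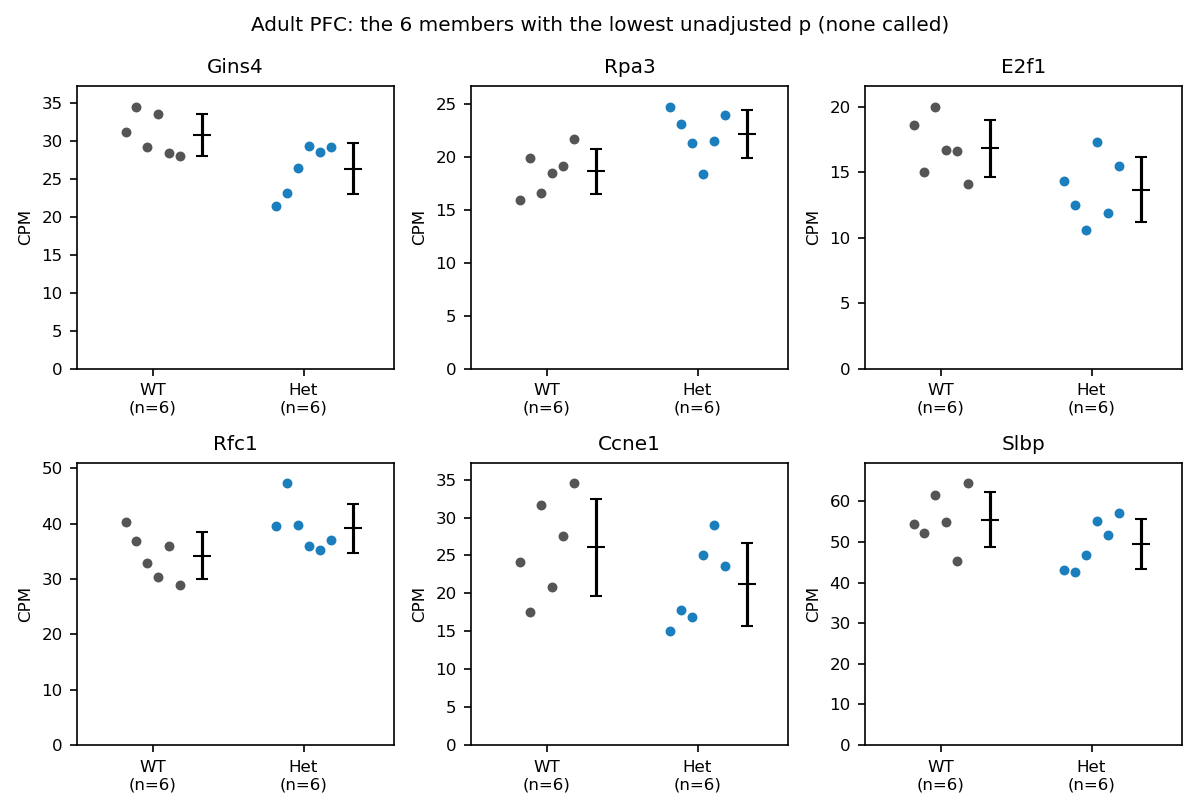
CPM (y axis, from 0) in adult PFC of the 6 members with the lowest unadjusted p, in 6 WT and 6 Het libraries (points), with mean and SD beside them. WT and Het overlap in all 6 genes, and none was called.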

How the data were processed

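The deposited tables, 1 per tissue, hold log2 CPM after RUVr, a removal of unwanted variation, per the file names and values. The submitters' processing notes name Trimmomatic, Bowtie2, STAR, HTSeq and mm10, with no versions. Per the labels' protocols, a Zymo kit gave the RNA and libraries came from a SMARTer Ultra Low kit. From these log2 values, a prior count of 2 was removed to recover CPM, and all values then came out as whole numbers within 0.01. These are adjusted values and not raw reads, so a count model was not used and floors cannot be given in reads.

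Genes that reached 1 CPM in 4 or more embryonic, or 6 or more adult, libraries were fitted as log2(CPM + 0.5) on genotype and labelled sex with limma 3.58.1 in R 4.3.3 (trended, robust empirical Bayes), all libraries of a tissue together, and p-values were adjusted over all genes. The tables were never tested against each other. The code was tested on simulated data. The members and lists were chosen with earlier results of these data known. Gene coordinates, lengths and exon overlaps come from GENCODE vM21. Each member was accounted for, and values were given for members called and for the member with the lowest p in a role. Partner genes were named when called, up to 4 per list, and markers by their sums. The alternatives changed the pseudocount, filter, scaling, test, covariates, GC content, threshold and libraries.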

Additional observations from a re-analysis of the deposited data

Results flagged for a closer look

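Within groups of 4 to 6 libraries, 10 of 181 sets of member values had 1 library far from the others by Dixon's criterion, and chance gives about 1 in 20. In E14.5 cortex these were Gins4 at 43.4 CPM in Het M01 (others 31.6 to 34.6), Mcm10 at 37.8 in Het M07 (others 23.5 to 28.2), Pold1 at 11.9 in WT F12 (others 16 to 17.7) and Dut at 68.8 in WT F12 (others 19.3 to 35.8). In adult PFC they were Gins3 at 1.17 CPM in Het F02 (others 3.31 to 4.23), Prim1 at 10.9 in WT F04 (others 5.88 to 7.72) and Pold2 at 23.7 in WT F06 (others 29.7 to 33.1). The others in PFC were Pcna at 59.8 in Het M05 (others 75 to 80.5), Rfc1 at 47.3 in Het F04 (others 35.3 to 39.8) and Chaf1a at 2.15 in WT F04 (others 0.44 to 0.828). Gins4 was above the WT mean in all 6 Het embryos (log2 change 0.20) and below it in all 6 Het adults (-0.23). That difference between the tissues was not tested, since the tables were normalized separately.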

How the results depend on the processing

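The counts of members called against WT at E14.5 moved with the test and the libraries used. The 6 lower members in Hom became 0 with plain empirical Bayes and 2 with voom weights, and between 2 and 7 with 1 library left out (2 without WT F04 or Hom F04, 3 without Hom F09 or Hom M02). The 7 lower members in Het became 1 with plain empirical Bayes, 4 with the RUVr directions as covariates, 4 with only the 2 groups' libraries and 4 without WT F04, Het F10 and Het M11 (chosen after seeing the data). With 1 library left out they ran from 1 (without Het F07) to 10, with 2 without WT F04, 3 without WT F06 or Het F02 and 4 without Het M01. The GC content and length correction lost the lower calls of Rfc2, Tk1 and Dnmt1 in Hom and of Rpa1 and Tk1 in Het. The 1 higher member in Hom, Rpa3, became 0 with median centring, plain empirical Bayes, the RUVr directions or the GC content and length correction, and 2 with total scaling, an adjusted p under 0.10 or only the 2 groups' libraries. With 1 library left out it ran from 0 to 2. In Het it became 0 with plain empirical Bayes or the GC content and length correction, where its log2 change was -0.02, and ran from 0 to 2 with 1 library left out. No member was called between Hom and Het or in PFC in the main analysis or in any alternative run. The E2F octamer share of 28.1% became 59.4% with 7 letters, an alternative chosen after seeing the data. Of all Hom calls 57.5% were lower, and 71.7% with median centring, 35.7% with total scaling and 34.1% with voom; in Het 51.2% became 70.5% with median centring. The causes were not tested. No paired analysis was possible because the replicate numbers are animal numbers and pair no samples. The sample identifiers carry a prefix shared across genotypes, whose meaning the labels do not state. With it as a covariate 5 members were lower in Hom and 6 in Het, the Rfc2 call in Hom (adjusted p = 0.0651) and the Tk1 call in Het (adjusted p = 0.0598) were lost, and the genes called in all went from 944 to 809 in Hom, from 724 to 585 in Het and from 52 to 19 in PFC. Depth is unknown, and members under about 1 CPM in PFC could not be tested.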
